A study of Mus musculus with 9 samples.

Results

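The mitochondrial carrier family Slc25 was followed in mouse liver across feeding states and circadian time. Its members were taken as every gene whose symbol begins with Slc25a, 47 of the 20409 genes that the count files named, and where a gene had several transcripts the one with the highest total count stood for it. The livers came from male C57BL/6J mice kept in a light-dark cycle (LD) and, for each condition, were pooled, so that 1 library of polyA+ RNA represented each of 9 conditions. The 3 feeding conditions were food ad libitum, a fast of 16 h that began at ZT9 and ended at ZT1 (ZT being hours after lights on), and the same length of fast with 20 h of refeeding after it. The other 6 were mice held in LD for 1 week and then in constant darkness (DD) for 6 weeks, with 1 library at each of circadian times (CT) 1, 5, 9, 13, 17 and 21. The labels name no transgene, deletion or drug in any group, and neither their age nor the number of livers in a pool is stated there or in the methods.

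Slc25 proteins are small carriers that, with a few exceptions, sit in the inner mitochondrial membrane and exchange nucleotides, amino acids, carboxylates, cofactors, metals and inorganic ions between the matrix and the cytosol. In liver they connect matrix and cytosolic steps of several pathways. The ornithine and aspartate/glutamate carriers serve the urea cycle, the carnitine/acylcarnitine carrier brings fatty acyl groups to oxidation, the citrate carrier exports carbon for lipid synthesis, and the adenine nucleotide carriers deliver ATP made by oxidative phosphorylation.

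Of the 47 genes, 45 had at least 10 counts in some library, 34 had at least 100 counts in every library and 19 had at least 1000. Slc25a41 and Slc25a54 stayed under 10 counts in every library and are not described further. The libraries held between 43485652 (CT9) and 59624294 (ad libitum) counts in named genes. Hepatocyte markers (7 of 8 matched) were lowest ad libitum, at 5.47% of all counts, with 11% in the fasted library and 7.54% to 11.9% over the other 8. The ad libitum, CT1 and CT17 libraries stood apart in genes outside the family, since 30 acute phase genes took 26.5%, 17.4% and 17.2% of their counts, respectively, and 3.95% to 7.37% in the 6 remaining libraries. Neutrophil markers (9 of 10 genes matched) moved the same way, with a summed level of 57.7, 22.4 and 37.6 CPM (counts scaled by TMM to a common library size) in these libraries and 1.26 to 5.30 elsewhere. So did the 6 cholangiocyte markers, with 463.7, 196.1 and 241.9 CPM and 42.6 to 81.4 elsewhere. The fasted library stood apart in the 5 adipocyte markers, with a summed level of 82.6 CPM and 0.872 to 3.02 in the others. Of that sum 82.2 CPM was Cidec, a lipid droplet protein, and Adipoq, Plin1, Ucp1 and Lep had at most 8 counts in any library. In such bulk samples, fewer cells of a type and less RNA per cell cannot be told apart. The part of these differences in the results below was not tested. Most counts that rest on the DD libraries are also given without CT1 and CT17. The cosine was not refitted without both. Counts by unadjusted p, by DESeq2 or limma-voom, and of genes outside the family that work beside it are given with all 6 only.

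Per kilobase of transcript, the highest mean level over the 9 libraries was that of Slc25a5, an ADP/ATP carrier, with 368.6 CPM per kb (233.2 to 500.2). Next was Slc25a47, a carrier found mainly in liver, with 281.7 CPM per kb (114.4 to 809.5), whose range was the wider. Slc25a5 was the higher of the pair in 8 libraries and Slc25a47 in the fasted one, where it had 809.5 CPM per kb and Slc25a5 367.5. They were followed by Slc25a39, which takes glutathione into mitochondria (116.8), Slc25a15, the ornithine carrier (103.1), Slc25a3, the phosphate and copper carrier (94.9), and Slc25a13 or citrin, the liver aspartate/glutamate carrier (71.0). The ranges of these last 4 over the libraries overlapped, Slc25a39 at 92.2 to 145.8 and Slc25a3 at 83.5 to 114.3 among them, so their order does not hold in every library. Among isoforms of 1 function the levels were unequal, with Slc25a4, the ADP/ATP carrier best known from heart and muscle, at 4.24 CPM per kb and Slc25a31, that of the testis, at 0.108. Slc25a12, the aspartate/glutamate carrier of brain and muscle, had 2.98 CPM per kb.

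**Figure D1:**
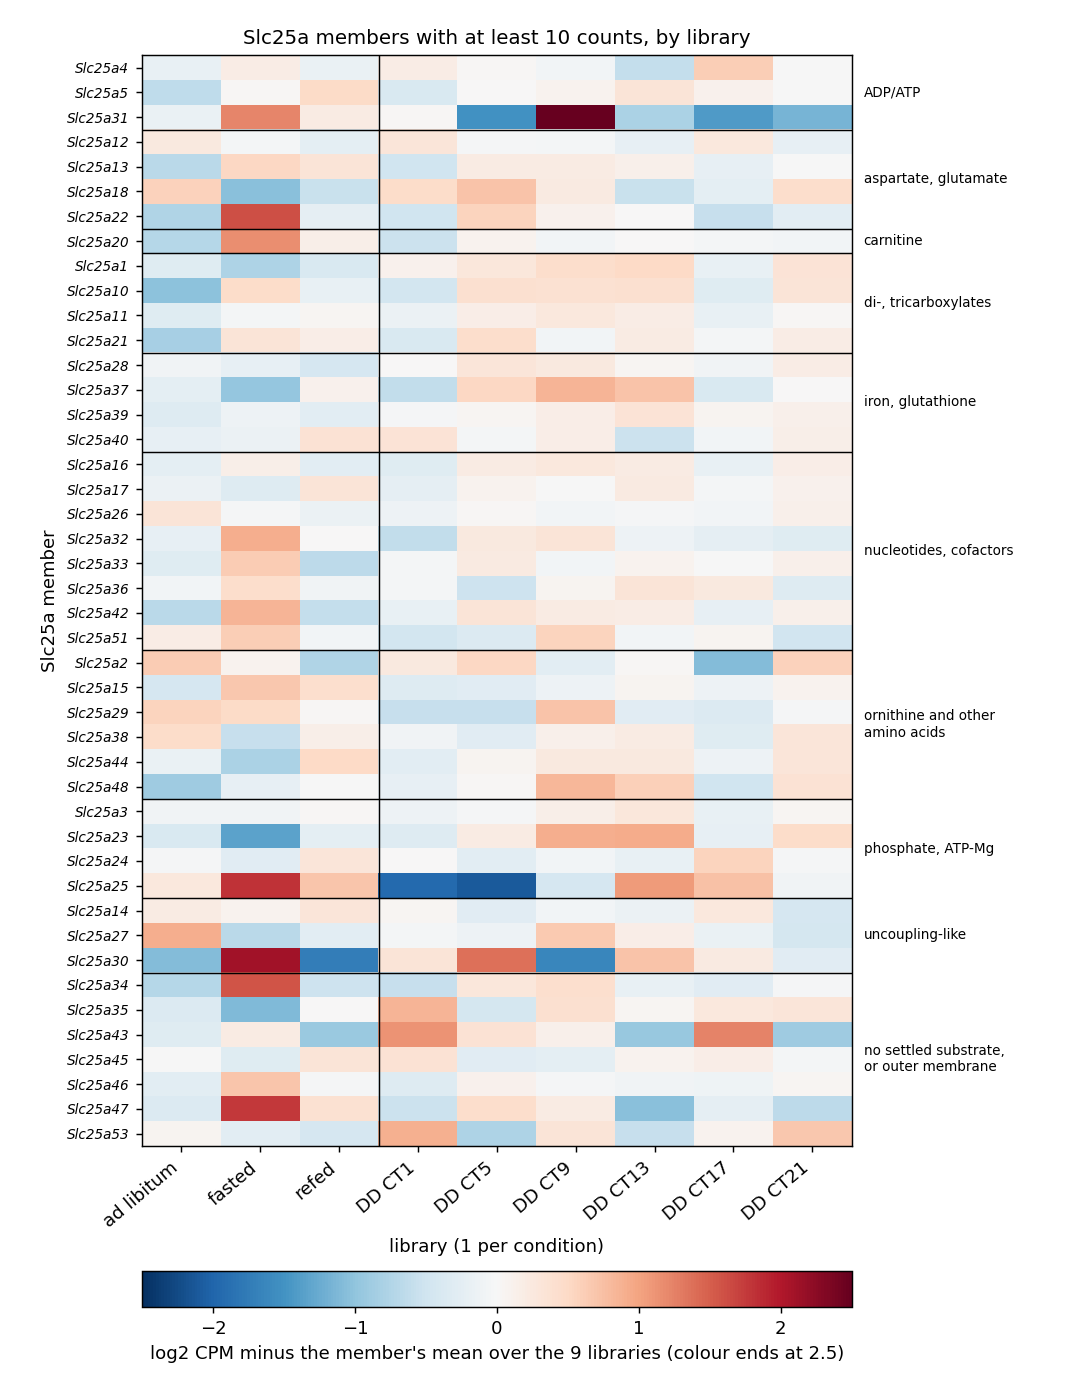
Levels of 44 Slc25a members with at least 10 counts in some library, as log2 CPM minus the member's own mean over the 9 libraries (red above, blue below, columns are libraries, rows are members grouped by what they carry). In the fasted column Slc25a22, Slc25a25, Slc25a30, Slc25a34 and Slc25a47 stand high, and Slc25a25 is low at CT1 and CT5 in DD.

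Promoter sequence was at hand for 36 of the 47 members, as 46 RefSeq windows (GRCm38.p6) of 250 bases before to 50 bases after a start site. The GC box (GGGCGG, either strand) was in 38 of these 46 windows, against 35.7% of all 32851 windows, and the CCAAT box (CCAAT, either strand) was in 22, against 37.4%. Rarer motifs were found in a few members. The cAMP response element (TGACGTCA, its own reverse complement) was in 1.79% of all windows and in those of 2 members, one of them the window of the most downstream of the 3 start sites of Slc25a25. The E-box bound by clock factors (CACGTG, its own reverse complement) was in 7.15% of all windows and in 8 windows of 7 members, Slc25a13 and Slc25a15 included. The hexamer bound by many nuclear receptors (AGGTCA, either strand) was in 16.3% of all windows and in 4 of the 46, those of Slc25a34 and Slc25a47 included. The D-box (TTATGTAA, either strand) was in no member's window and in 0.938% of all windows. A match here is only a match of letters. The 160 bases before the start are shown for 5 of the members that are described below and hold 1 of the rarer motifs, picked with their levels known, 5′ to 3′ on the gene's strand, with the motif in capitals. They lie at chr2:32424067-32424226 (Slc25a25, minus strand), chr6:6217174-6217333 (Slc25a13, minus), chr8:22398278-22398437 (Slc25a15, minus), chr4:141623835-141623994 (Slc25a34, minus) and chr12:108850969-108851128 (Slc25a47, plus).
Slc25a25: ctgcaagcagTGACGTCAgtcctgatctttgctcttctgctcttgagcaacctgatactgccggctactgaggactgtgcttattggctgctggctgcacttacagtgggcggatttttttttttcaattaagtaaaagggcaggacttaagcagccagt
Slc25a13: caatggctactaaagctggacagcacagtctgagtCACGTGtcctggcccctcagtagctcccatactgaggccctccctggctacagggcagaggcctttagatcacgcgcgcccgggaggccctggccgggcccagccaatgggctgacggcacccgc
Slc25a15: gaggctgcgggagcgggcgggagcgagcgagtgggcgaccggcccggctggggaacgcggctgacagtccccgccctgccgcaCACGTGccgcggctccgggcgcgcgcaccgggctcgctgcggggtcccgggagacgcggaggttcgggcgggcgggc
Slc25a34: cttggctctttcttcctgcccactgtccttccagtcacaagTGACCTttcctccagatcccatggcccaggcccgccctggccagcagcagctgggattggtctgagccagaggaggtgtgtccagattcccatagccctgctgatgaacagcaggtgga
Slc25a47: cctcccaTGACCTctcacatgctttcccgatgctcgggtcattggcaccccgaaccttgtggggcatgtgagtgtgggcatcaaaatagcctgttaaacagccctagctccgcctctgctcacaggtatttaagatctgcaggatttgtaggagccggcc

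The fasted library was first set against the ad libitum library, to ask which carriers differ with food. With 1 library per condition there is no replicate check, so these are ratios of CPM with a 95% counting interval, which covers counting error only, and no p-value. Members counted are those with at least 10 counts in 1 of the libraries compared. Of 44 such members, 13 were at least 2-fold higher in the fasted library (11.1% of 14412 genes were) and 4 were at least 2-fold lower (9.47% of genes). The median log2 ratio was 0.23 over the members and -0.05 over all genes. Without scaling the split was 9 higher and 6 lower. The labels give no collection time for the ad libitum and refed mice, so food and time of day cannot be told apart in these ratios. If the refed mice fasted over the same hours, their 20 h of refeeding ended at a different time of day than the fast did. Clock output differed between the 3 libraries, with 0.949, 5.33 and 33.9 CPM of Dbp, a clock-controlled transcription factor.

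The widest ratio was that of Slc25a30, an uncoupling-like carrier first described in kidney. Ad libitum, fasted and refed levels were 9.70, 88.3 and 6.20 CPM, and in DD its lowest, median and highest levels were 6.72, 25.0 and 53.5 CPM. The fasted library was above all the others and 9.10-fold above the ad libitum library (log2 ratio 3.19, interval 3.05 to 3.32), and the refed library was the lowest, close to CT9. Its single transcript lies at chr14:75757534-75787037.

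The glutamate carrier Slc25a22 had 24.6 CPM in the ad libitum, 126.5 in the fasted and 35.4 in the refed library, and 27.8 to 60.4 (median 37.9) in DD. Its fasted level was 5.14-fold that of the ad libitum library (log2 2.36, interval 2.27 to 2.45) and above all 6 DD libraries. The other carriers of aspartate and glutamate did not share one direction. Slc25a13 had 135.1, 308.4 and 267.1 CPM in the ad libitum, fasted and refed libraries and 151.8 to 249.0 in DD (median 223.8), so that both the fasted and the refed level were above DD and the ad libitum level below it. Slc25a12 had 22.1, 18.0 and 15.8 CPM, and Slc25a18, a second glutamate carrier, had only 9 to 37 counts per library.

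Slc25a47 had 297.8 CPM in the ad libitum, 1279 in the fasted and 488.7 in the refed library, and 180.8 to 508.4 in DD (median 289.7). The fasted library was 4.30-fold above the ad libitum (log2 2.10, interval 2.08 to 2.13), and only the fasted library lay outside the DD range. Its neighbour on chromosome 12, the basic amino acid carrier Slc25a29, had ad libitum and fasted levels of 2.79 and 2.64 CPM. Slc25a34, a carrier with no settled substrate, had 3.31 CPM in the ad libitum, 16.2 in the fasted and 3.81 in the refed library, and 3.66 to 7.28 in DD (median 5.03). Its fasted level was 4.89-fold that of the ad libitum library (log2 2.29, interval 2.05 to 2.54). These are the 2 members shown above with a nuclear receptor hexamer. The hexamer was also in windows of Slc25a39 and Slc25a45, whose log2 ratios of fasted to ad libitum were 0.21 and -0.29. A link between the motif and the level was not tested.

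The carnitine/acylcarnitine carrier Slc25a20 had 64.1 CPM in the ad libitum, 234.9 in the fasted and 115.4 in the refed library, and 72.1 to 111.6 in DD (median 100.7). The fasted level was 3.66-fold the ad libitum level (log2 1.87, interval 1.82 to 1.93). The ad libitum library was below every DD library, and both others were above. Slc25a42, which carries coenzyme A into the matrix, had 25.8, 74.1 and 27.4 CPM in the ad libitum, fasted and refed libraries and 35.7 to 51.6 in DD (median 46.1). It was thus above the DD range in the fasted library and below it in both fed libraries, the fasted level being 2.87-fold the ad libitum one (log2 1.52, interval 1.43 to 1.62). Slc25a25, a calcium-sensitive ATP-Mg/phosphate carrier, had 179.8, 523.7 and 241.6 CPM and was 2.91-fold higher in the fasted than in the ad libitum library (log2 1.54, interval 1.51 to 1.58).

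The ornithine carrier Slc25a15 had 257.1 CPM in the ad libitum, 549.7 in the fasted and 461.2 in the refed library, and 275.8 to 367.3 in DD (median 314.2). Fasted and refed levels were above all DD libraries and the ad libitum level below them, an order it shared with Slc25a13. Among carboxylate carriers, the dicarboxylate carrier Slc25a10 had 66.3, 184.8 and 118.6 CPM, a fasted to ad libitum ratio of 2.79. In DD it had 97.9 to 178.3 CPM, so the ad libitum level was below and the fasted level above all DD libraries. Slc25a21, which carries oxodicarboxylates, had 4.69, 10.5 and 9.37 CPM, and 6.43 to 11.35 in DD. The citrate carrier Slc25a1 had 90.7, 65.8 and 86.8 CPM in the ad libitum, fasted and refed libraries, all below its 98.6 to 158.7 CPM in DD, and the oxoglutarate carrier Slc25a11 had 49.1, 58.9 and 63.1 CPM. The folate and flavin carrier Slc25a32 (2.19-fold) and Slc25a31 (11 against 5 counts, interval on the log2 scale -0.26 to 3.26) completed the 13 higher members.

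The 4 members at least 2-fold lower included Slc25a38, the glycine carrier needed for heme synthesis, with 23.6, 11.6 and 19.2 CPM in the ad libitum, fasted and refed libraries and 14.1 to 21.4 in DD. The mitochondrial iron carrier Slc25a37 was also low in the fasted library, with 19.4, 11.7 and 24.9 CPM and 15.1 to 41.6 in DD. Both carriers are known from red cell precursors, and the summed level of 8 erythroid markers was 489 CPM in the ad libitum, 494 in the fasted and 729 in the refed library and 298 to 469 in DD. Slc25a18 and Slc25a27 (an uncoupling-like carrier of brain), also among the lower members, had at most 46 counts in any library.

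Since the ad libitum library held the highest acute phase share, the fasted library was also compared with the mean log2 level of the DD libraries at CT5, CT9, CT13 and CT21, a choice made after the data were seen. Then 7 members were at least 2-fold higher and 6 at least 2-fold lower, with 14.8% of genes past 2-fold in either direction. Of the 13 members higher than in the ad libitum library, 7 were higher here too, Slc25a47 (log2 2.03), Slc25a25 (2.20), Slc25a30 (2.05), Slc25a22 (1.52), Slc25a34 (1.46), Slc25a20 (1.18) and Slc25a31 (1.20). Slc25a31 had only 11 counts in the fasted library and 60 at CT9, and its fasted level was within the DD range. Both comparisons use the same fasted library, so members shared by them are not a second check. The share of all genes past 2-fold in both was not counted. For Slc25a13, Slc25a10 and Slc25a42 the values were 0.39, 0.08 and 0.63, under 2-fold. Of the 4 lower members 1 was lower here, Slc25a18 (-1.25). The others past 2-fold on the low side were Slc25a23, a second ATP-Mg/phosphate carrier (-1.96), Slc25a37 (-1.50), Slc25a35 (-1.18), Slc25a1 (-1.16) and Slc25a44 (-1.01).

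**Figure D2:**
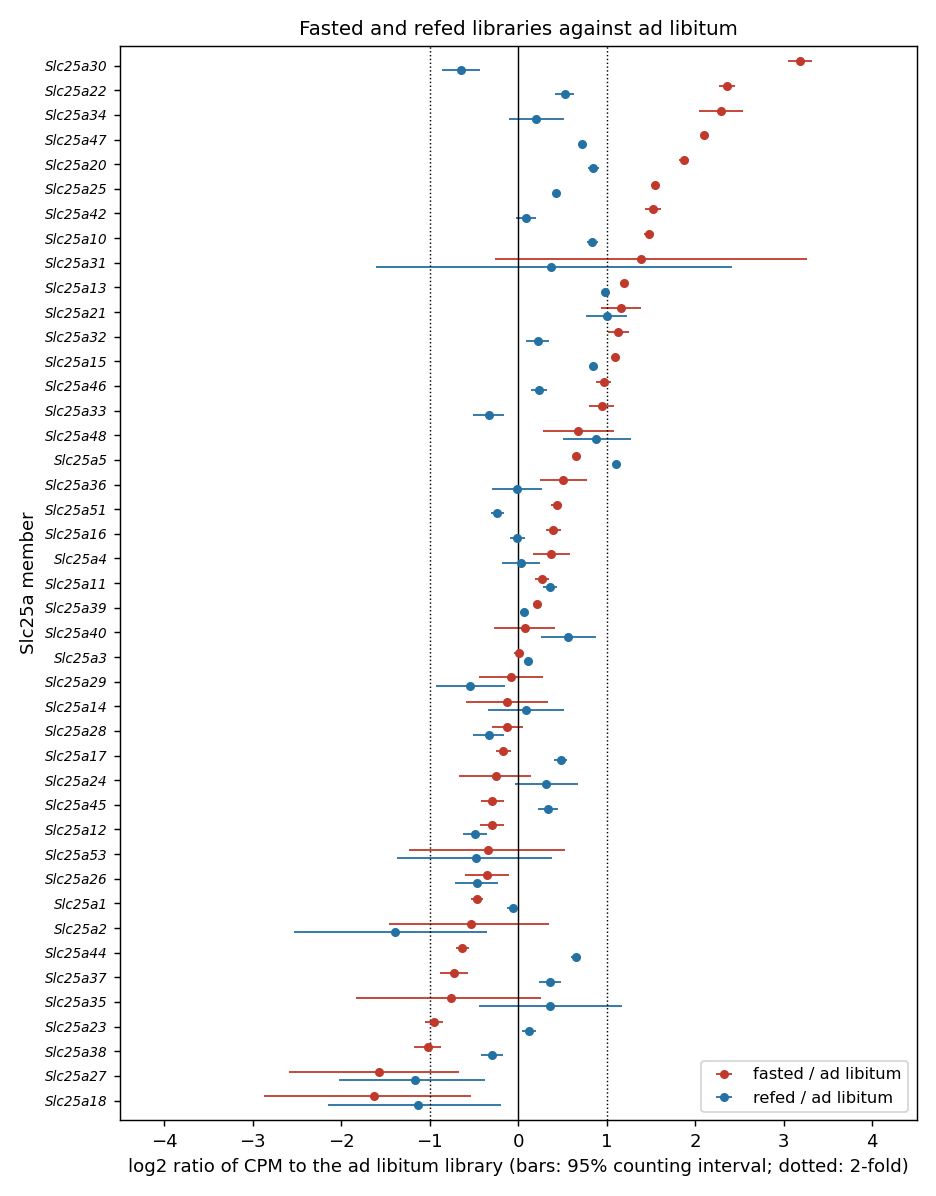
log2 ratios of the fasted (red) and refed (blue) library to the ad libitum library for 43 of the members counted in the fasted comparison, with 95% counting intervals as bars and 2-fold as dotted lines (Slc25a31, with 6 and 5 counts, is drawn but not counted for refed). Slc25a30 has the highest fasted ratio (3.19) with a refed ratio of -0.65, while Slc25a13 and Slc25a15 have like ratios in both libraries.

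In the refed library the family lay closer to the ad libitum library. Of 43 members counted, 1 was at least 2-fold higher (7.71% of 14026 genes were) and 4 were at least 2-fold lower (7.82% of genes), with a median log2 ratio of 0.12 against -0.03 over all genes. The higher member was Slc25a5, which had 289.2 CPM in the ad libitum, 455.7 in the fasted and 620.2 in the refed library and 341.8 to 561.2 in DD (median 460.4). The refed library was thus above and the ad libitum library below all DD libraries (2.14-fold, log2 1.10, interval 1.07 to 1.13). Reads of Slc25a5 may be shared with its processed copies, and nothing in the sources says how the authors assigned such reads. The lower members included 3 with at most 46 counts, Slc25a2, Slc25a18 and Slc25a27. Slc25a21, Slc25a13, Slc25a48, Slc25a20, Slc25a15 and Slc25a10 lay just inside 2-fold, with log2 ratios of 1.00, 0.98, 0.88, 0.85, 0.84 and 0.84. Slc25a48 had 1.76, 2.82 and 3.25 CPM in the ad libitum, fasted and refed libraries and 2.32 to 5.85 in DD. Scaled by total counts the split was 7 higher and 2 lower. Against the mean of the 4 DD libraries named above, 1 member was higher, Slc25a25 (1.08), and 1 lower, Slc25a30 (-1.78), with 7.46% of genes past 2-fold in either direction. The refed level of Slc25a25, 241.6 CPM, was inside the range of these 4 libraries, 34.6 to 313.2. That of Slc25a30, 6.20 CPM, was below their range but close to CT9, at 6.72.

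Between the refed and the fasted library, 4 of 44 members were at least 2-fold higher after refeeding (6.21% of 14321 genes were) and 9 at least 2-fold lower (8.39% of genes), and without scaling 5 were higher and 6 lower. The 9 lower members were Slc25a30 (log2 -3.83, interval -4.01 to -3.66), Slc25a34 (-2.09), Slc25a22 (-1.84), Slc25a42 (-1.44), Slc25a47 (-1.39), Slc25a33 (-1.28), Slc25a25 (-1.12), Slc25a20 (-1.02) and Slc25a31 (11 against 6 counts). Slc25a33, a pyrimidine nucleotide carrier, had 12.1, 23.2 and 9.58 CPM in the ad libitum, fasted and refed libraries and 14.4 to 17.6 in DD, so only the fasted library was above DD. The highest ratio was that of Slc25a44, a carrier of branched-chain amino acids. It had 80.0 CPM in the ad libitum, 51.6 in the fasted and 125.9 in the refed library, and 74.9 to 110.1 in DD (median 100.2), so that the fasted library was below and the refed library above all DD libraries (log2 1.29, interval 1.22 to 1.36). The other 3 were Slc25a37 (1.08), Slc25a23 (1.08) and Slc25a35 (31 against 13 counts). This comparison shares its libraries with the 2 before it, so the ratios are not independent.

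In DD the family was searched for members whose level followed circadian time. Between the highest and the lowest of the 6 libraries, 17 of 45 members differed at least 2-fold (32.7% of 14570 genes did) and 4 at least 4-fold (10.5% of genes). Of the latter, only Slc25a25 and Slc25a30 had 100 counts at the peak, the other 2 being Slc25a31 and Slc25a43 with at most 60 counts. Without CT1 and CT17, 9 of 44 members differed at least 2-fold (18% of genes) and 3 at least 4-fold (4.87%). In the order of circadian time, Slc25a25 had 38.8, 34.6, 110.9, 313.2, 247.5 and 140.0 CPM. It thus formed one wave with its trough late in the subjective morning and its crest at the start of the subjective night, a 9.04-fold range (log2 3.18). The fasted library, at 523.7 CPM, was above all 6, and the other feeding libraries were within their range. Among clock genes, Per1 and Per2 were highest at CT9 and Cry1 at CT13.

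A 24-h cosine was fitted to the 6 DD libraries with edgeR's quasi-likelihood F test over all genes. For Slc25a25 its log2 amplitude was 1.70 ± 0.15 (SE) with the crest at CT15.2, and the Benjamini-Hochberg adjusted p was 0.128 (unadjusted 4.32e-05), the lowest of the family. No member passed 0.05, nor did any of 14021 genes (0%). Unadjusted p was under 0.05 for 3 of 44 members (6.82%) and for 8.73% of genes. DESeq2 called 1 member, Slc25a25 (2.57% of genes), and limma-voom none (0% of genes). Over 14 alternatives the adjusted p of Slc25a25 went from 2.76e-20 with DESeq2 to 0.544 without CT9, and without CT21 it was the 1 member called by edgeR (0.266% of genes). The 6 libraries cover a single cycle with 1 pool each. Exons of Slc25a25 share 379 bases with Naif1 on the other strand, whose counts (135 to 312) were far under those of Slc25a25 (1825 to 22817). The sources used here do not say whether counting used strand.

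Slc25a30 did not form a single wave. From CT1 to CT21 it had 25.9, 53.5, 6.72, 34.0, 24.1 and 17.01 CPM. The low level at CT9 lay between the 2 highest, and without that library the peak-to-nadir log2 ratio went from 2.99 to 1.65. Slc25a47 had 258.6, 508.4, 431.9, 180.8, 320.8 and 239.5 CPM in the same order of times, highest at CT5 and lowest at CT13 (log2 1.49). Slc25a37 had 15.1, 33.0, 41.6, 37.7, 17.7 and 23.3 CPM, highest at CT9 and lowest at CT1 (log2 1.46). The 2 lowest libraries of Slc25a37 were CT1 and CT17, those with the high acute phase share, and whether that share played a part was not tested. Slc25a23 had the same 2 libraries lowest, with 50.9 and 55.6 CPM, and the other 4 had 74.3 to 121.5.

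**Figure D3:**
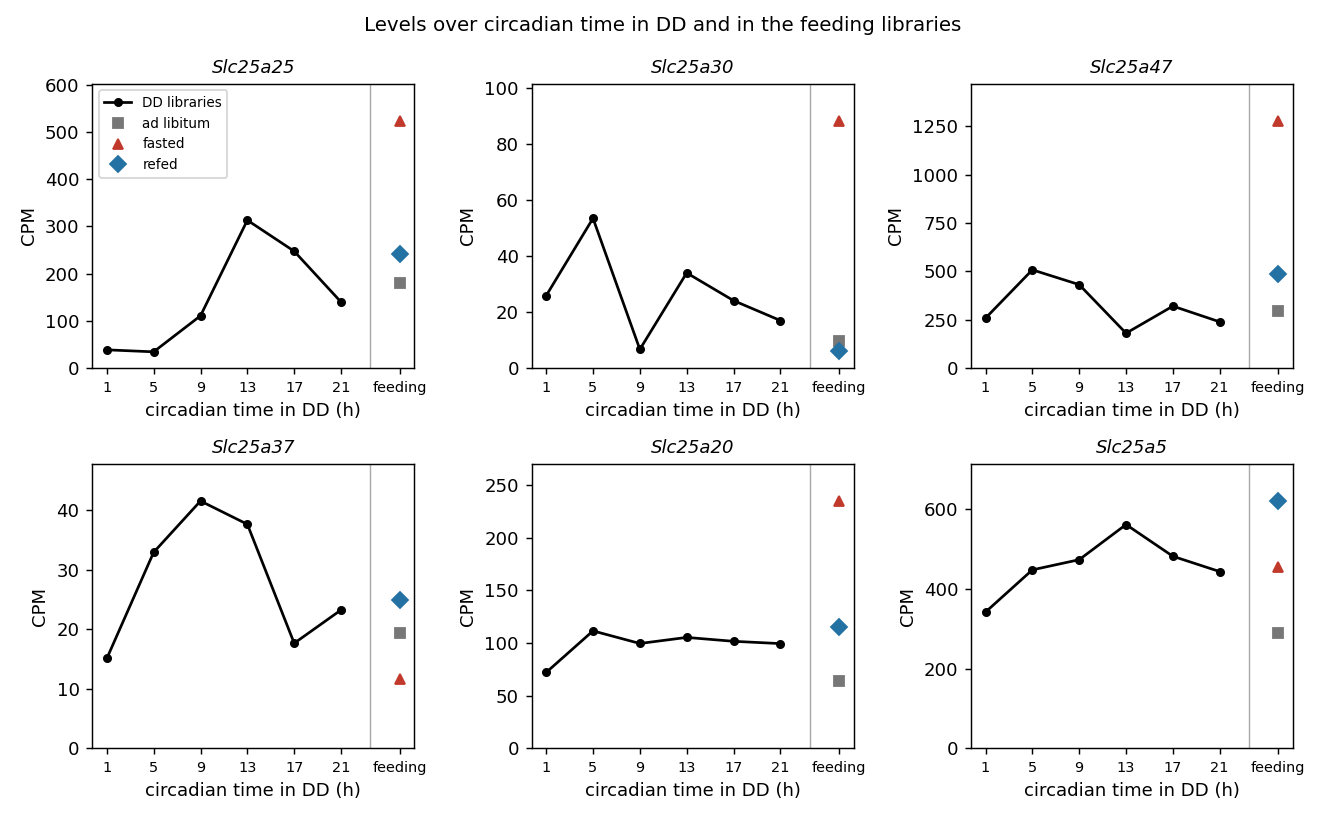
CPM of 6 Slc25a members against circadian time in DD (black, 1 library per time) with the ad libitum, fasted and refed libraries drawn at the right of each panel, axes starting at 0. Slc25a25 climbs from 34.6 CPM at CT5 to 313.2 at CT13, Slc25a20 stays between 72.1 and 111.6 in DD while the fasted library is at 234.9, and the fasted level of Slc25a37 is below its DD range.

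The 6 DD libraries also gave the only spread between libraries, and each feeding library was tested against them as a group (edgeR quasi-likelihood, adjusted over 14797 genes). The lone library is then assumed to vary like the DD libraries, whose spread contains circadian time, and food and lighting cannot be told apart. In the fasted library 3 of 45 members rose (1.02% of genes did, and 0.561% fell) and none fell. They were Slc25a20 (log2 1.26 ± 0.21 SE, adjusted p = 0.0293), Slc25a34 (1.60 ± 0.30, adjusted p = 0.0431) and Slc25a22 (1.68 ± 0.33, adjusted p = 0.0474). All 6 DD libraries were below the fasted one for each. Slc25a20 lies at chr9:108662136-108684642, Slc25a34 at chr4:141618819-141623891 and Slc25a22 at chr7:141429749-141437874. Slc25a47, at 1.98 ± 0.43, had an adjusted p of 0.0631, and Slc25a46, an outer membrane protein that acts in mitochondrial fission, had 0.76 ± 0.17 and 0.0690. Slc25a25 and Slc25a30, which had the widest DD ranges of the well-counted members, had 1.83 ± 0.90 and 1.72 ± 0.68 with adjusted p of 0.307 and 0.221. Unadjusted p was under 0.05 for 15 of 45 members (33.3%) and 19.2% of genes.

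The 3 calls were sensitive to single libraries. Without CT13 or without CT21 no member was called, without CT9 only Slc25a34 and without CT17 only Slc25a20 was, and scaling by total counts left none. Over 15 alternatives each, the adjusted p went from 6.85e-05 to 0.0664 for Slc25a20, from 0.000879 to 0.0943 for Slc25a34 and from 0.000991 to 0.102 for Slc25a22. Without both CT1 and CT17 there were 8 calls (5 higher, 3 lower, against 4.92% of genes), among them Slc25a20, Slc25a22 and Slc25a34.

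As a plain count, the fasted library was above the highest DD library for 15 of 45 members (21.7% of 14948 genes) and below the lowest for 14 (27.7%). The ad libitum library was above for 5 (19.8% of genes) and below for 15 (21.4%), and the refed library was above for 8 (20.9%) and below for 8 (20.6%). Against the narrower range without CT1 and CT17, the fasted library was above for 17 (29.1% of genes) and below for 18 (36.6%), the ad libitum library for 8 (28.5%) and 22 (31.4%), and the refed library for 10 (29.6%) and 14 (30.1%). Slc25a1 and Slc25a39 were below DD in all 3 feeding libraries (2.81% of genes were) and none was above DD in all 3 (2.04% of genes), Slc25a39 with 155.3, 179.2 and 162.1 CPM against 190.3 to 245.7. Without CT1 and CT17 these counts were 6 below (9.94% of genes) and 1 above (6.43%). The tests of the ad libitum and the refed library called 0 members. For the ad libitum library 7 members had an unadjusted p under 0.05 (15.6%, and 13.1% of genes did), DESeq2 called 2, Slc25a10 among them (2.99% of genes), and limma-voom 1 (0.277%), and edgeR called 0.101% of genes (0.0879% higher and 0.0135% lower). Without CT1 and CT17 edgeR called 6 members there, 1 higher and 5 lower (7.15% of genes). For the refed library 5 members had an unadjusted p under 0.05 (11.1%, and 12.3% of genes did), DESeq2 called 1, Slc25a33 (1.14% of genes), limma-voom none (0.0473%), and edgeR called 0.00676% of genes. Without CT1 and CT17 edgeR called 0 members there (0.00683% of genes).

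**Figure D4:**
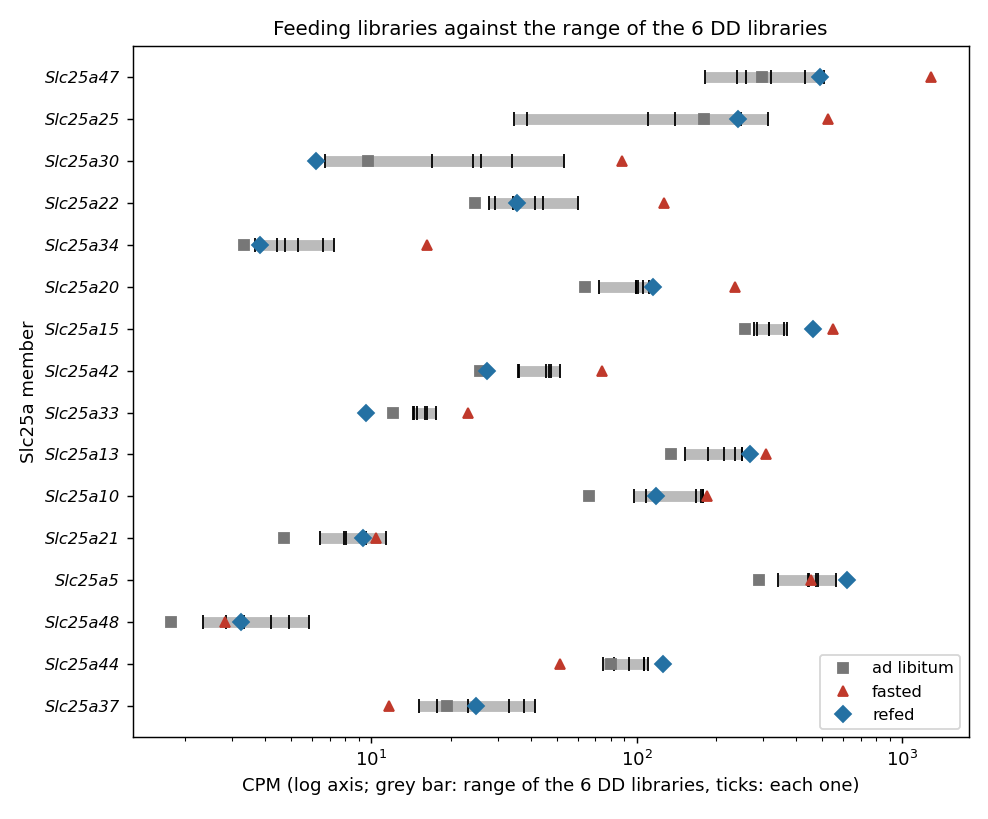
CPM of 16 members described by the largest ratios or by a test, on a log axis, with the range of the 6 DD libraries as a grey bar, each DD library as a tick, and the ad libitum (grey square), fasted (red triangle) and refed (blue diamond) libraries as points. For Slc25a20, Slc25a22 and Slc25a34 the fasted library is above all 6 DD libraries.

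Genes that work beside the carriers were read the same way from a list of 26, of which 24 were counted. In the fasted against the ad libitum library 12 were at least 2-fold higher (11.1% of all genes were) and 1 lower (9.47%), with a median log2 ratio of 1.03 against -0.05 over all genes. Against the 6 DD libraries their median log2 difference was 0.35 for the fasted library (-0.09 over all genes). For the ad libitum library it was -0.48 (-0.04 over all genes), so the ratio of 1.03 also holds a low ad libitum level. All 4 genes of the carnitine shuttle that Slc25a20 belongs to were higher, with Cpt1a, which makes acylcarnitine at the outer membrane, at 167.7, 753.3 and 228.1 CPM in the ad libitum, fasted and refed libraries and Crat, the carnitine acetyltransferase, at 20.8, 139.0 and 15.6. Crat and Cpt1b, the muscle-type isoform, were the 2 genes of the list called in the fasted library against DD, where 1.02% of genes rose (log2 2.09 ± 0.20 and 3.90 ± 0.37 SE, adjusted p = 0.00371 for both). Of 6 urea cycle genes, served by Slc25a15 and Slc25a13, 5 were higher in the fasted and 4 in the refed library (7.71% of genes were in the latter), with Cps1, the entry enzyme, at 1710, 5916 and 5746 CPM, below its 2958 to 6389 CPM in DD only in the ad libitum library. Mpc1 and Mpc2, which together form the pyruvate carrier, had ratios of 1.60 and 1.28 on the log2 scale in the fasted library. Got1 of the malate-aspartate shuttle had 51.1, 380.5 and 148.9 CPM, and Acly, which splits the citrate that Slc25a1 exports, had 203.6, 73.0 and 614.5. The family members under other symbols, Ucp2, Mtch1 and Mtch2, stayed within 2-fold, with log2 ratios of -0.27, -0.25 and 0.98.

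Most of the remaining members lay within 2-fold in the feeding comparisons. Of the nucleotide and cofactor carriers, Slc25a16, Slc25a17, Slc25a26, Slc25a36 and Slc25a51 had log2 ratios of the fasted to the ad libitum library between -0.35 and 0.51, and of the metal and glutathione carriers Slc25a28, Slc25a39 and Slc25a40 had -0.12 to 0.21. The phosphate carrier Slc25a3 had 143.6, 144.0 and 154.7 CPM in the ad libitum, fasted and refed libraries and 134.6 to 184.3 in DD, and so was among the steadiest of the abundant members. The ratios of Slc25a4, Slc25a14, Slc25a24, Slc25a29, Slc25a45, Slc25a48 and Slc25a53 were within 2-fold in all 3 feeding comparisons. The counting intervals reached past 2-fold for Slc25a53 (20 to 30 counts) in each comparison. Those of Slc25a48 did so for fasted and refed against ad libitum. Slc25a43 had at most 14 counts in any library. Exons of 12 members share bases with a gene on the other strand. The most were shared by Slc25a35 (1151 bases with Rangrf), whose own counts of 13 to 63 are therefore uncertain. Slc25a18, with 9 to 37 counts, shares 32 bases with Atp6v1e1, which had 2873 to 4170 counts. Slc25a26, with 229 to 367 counts, shares 144 bases with Lrig1, which had 1233 to 5058. The counts of these members are uncertain for the same reason. Of the members named above, Slc25a10, Slc25a23, Slc25a33 and Slc25a37 share between 92 and 381 bases with noncoding genes.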

How the data were processed

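Paired reads of 150 bases were mapped by the authors to GRCm38/mm10, for which the submitters' processing notes name TopHat2 2.0.13, and counts of whole reads were deposited for 27457 RefSeq transcripts per library. Which program counted them, and how it used strand and reads with several places, is not given in the sources used here. Transcript names were taken from RefSeq GRCm38.p6 (26390) and GENCODE M21 (115). The 952 without a name (0.346% to 0.817% of a library) entered neither the library sizes nor the tests. Each gene was represented by its row with the highest total (3734 genes had 2 or more), since rows of 1 gene count the same reads.

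Library sizes were scaled by TMM (edgeR 4.0.16, limma 3.58.1, DESeq2 1.42.0, R 4.3.3) over 43485652 to 59624294 counts per library. Ratios between single libraries carry exact conditional binomial 95% intervals, a count of 0 was set at 3, and members with at least 10 counts in the higher library were counted at 2-fold. The tests were edgeR quasi-likelihood F tests over genes kept by filterByExpr, with Benjamini-Hochberg adjustment at 0.05. They were also run on simulated data with the same spread for all genes. For the tests of the feeding libraries, the simulated DD libraries did not vary with circadian time. That check therefore does not cover the spread of the real DD libraries. Alternatives changed the test, scaling, filter, transcript row, fold, minimum count and DD libraries. The samples are pools, 1 per condition, so p-values measure the spread between these libraries.

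Genes were described in full if among the 8 largest ratios of a feeding comparison with at least 100 counts, called by a test, among the 6 highest levels per kb, or among the 4 largest ranges in DD. One member is counted in the totals but its values are not reported here. The members, gene lists and rules were chosen with earlier results of these data known. Markers Tf, Cd68 and Ly6g were not matched. Figures were drawn with Python 3.11.15, numpy 2.4.6, pandas 2.3.3 and matplotlib 3.10.9.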

Additional observations from a re-analysis of the deposited data

Results flagged for a closer look

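In 45 members examined over the 6 DD libraries, 4 had a library set far from the rest. Among like replicates the cutoff used would be passed in about 1 in 20 groups. These libraries are different circadian times, so that rate does not apply to them. Slc25a20 had 72.1 CPM at CT1, with the next lowest at 99.5 and the highest at 112. Slc25a24 had 3.65 CPM at CT17, with the next highest at 2.48. Slc25a29 had 3.09 CPM at CT9, with the next highest at 1.84. Slc25a31, the testis ADP/ATP carrier, had 1.30 CPM (60 counts) at CT9 and 0.110 CPM at most in the other DD libraries.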

How the results depend on the processing

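The number of members past 2-fold in the fasted against the ad libitum library ranged from 13 to 25 over 9 alternatives, with higher members outnumbering lower ones in each, and that in the refed against the fasted library from 11 to 22 over 8, the 22 at 1.5-fold. In the refed against the ad libitum library the 5 members became 9 with total counts, 2 with a minimum of 100 counts, 14 at 1.5-fold and 2 against the DD libraries at CT5, CT9, CT13 and CT21, a comparison chosen after seeing the data. Total counts moved the median log2 ratio of all genes to 0.13 in the fasted and 0.18 in the refed comparison with ad libitum, and no scaling to -0.30 and -0.13. In DD the cosine called 1 member with DESeq2, and 0 to 1 when a library was left out. Against the 6 DD libraries, the fasted library had 12 calls with DESeq2, 0 with total counts, 8 without CT1 and CT17, and 0 to 3 when 1 library was left out. The ad libitum library had 2 with DESeq2, 1 with limma-voom, 6 without CT1 and CT17, and 0 to 1 when 1 library was left out. The refed library had 1 with DESeq2. Over all genes DESeq2 called 360 for the cosine (edgeR 0), 1116 for the fasted (234), 442 for the ad libitum (15) and 169 for the refed library (1). Without CT1 and CT17 edgeR called 1048 genes for the ad libitum and 721 for the fasted library. Leaving CT1 and CT17 out of the DD ranges, chosen after seeing the data, moved the members at least 2-fold between peak and nadir from 17 to 9, ad libitum above the range from 5 to 8, refed below it from 8 to 14, and all 3 feeding libraries below it from 2 to 6 and above it from 0 to 1, where a range of fewer libraries is never wider. The cause of the changes in the tests was not tested. Of 204 alternative log2 ratios of the named members, 164 stayed inside the counting interval of the reported ratio and 40 moved out of it. These alternatives changed only the scaling or the transcript row. They could hardly turn the sign of a ratio past 2-fold, so they do not check its direction. No paired analysis was possible because each condition has 1 library and the labels carry no replicate numbers. In Slc25a2, Slc25a18, Slc25a27, Slc25a31, Slc25a35 and Slc25a53 the intervals of the feeding ratios span over 1 log2 unit, and no difference between feeding states has a replicate.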

Other observations

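Over all 9 libraries the 3 transcript rows of Slc25a25 held nearly the same counts, 22817, 22789 and 22797 in the fasted library, so the files do not show which of its start sites was used. For Slc25a53 the 2 rows differed, with 56 and 15 counts at CT1. The pyrimidine carrier Slc25a36 was the only member of the 36 with promoter windows that held both the cAMP response element and an E-box. Its level was 3.06 to 5.48 CPM in DD and 4.17, 5.92 and 4.12 CPM in the ad libitum, fasted and refed libraries. The fasted level was 1.42-fold the ad libitum one.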
